A study of Mus musculus with 6 samples.

Results

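The nuclear-encoded genes of oxidative phosphorylation (OXPHOS) were described in naïve CD4 T cells of control and Rnmt cKO mice. Members were all genes of the authors' table of expressed genes whose symbol began with Nduf, Uqcr, Atp5, Cox4 to Cox8 or Sdha to Sdhd. The rule found 89 of the 11221 genes in that table. Of these, 74 encode subunits of the 5 complexes, 13 encode assembly factors, and 2 (Cox7a2l and Atp5s) belong to neither class. All 89 members were among the 12336 genes tested. These tested genes are the background used below, which is wider than the authors' table and so holds genes that could not be members. Another 19 genes with a symbol of this kind were outside the authors' table and held at most 7 counts in any library.

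RNA sequencing of rRNA-depleted total RNA was performed on naïve CD4 T cells, sorted from lymph nodes as TCRb+, CD4+, CD62L+ and CD44-. Control mice were Rnmt fl/fl without the CD4cre transgene (3 libraries), and Rnmt cKO mice were Rnmt fl/fl with CD4cre (3 libraries). Both groups carry loxP sites around exon 3 of Rnmt on a C57B6/J background, and all libraries are labelled male. Cre is expressed from Cd4 regulatory sequence from the double positive stage of thymic development, so the deletion precedes the naïve stage, and effects of the transgene and of Rnmt loss cannot be told apart. No age is given in the sources used here. RNMT methylates the guanosine cap of mRNA, and the question of the comparison is which RNAs change when it is lost.

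In OXPHOS, electrons from NADH enter the inner mitochondrial membrane at complex I and those from succinate at complex II. They pass through coenzyme Q, complex III and cytochrome c to complex IV, which reduces oxygen, and complex V (ATP synthase) uses the resulting proton gradient to make ATP. Most subunits are encoded in the nucleus, a small core is encoded in mitochondrial DNA, and assembly factors put the pieces together without staying in the finished complex. Resting T cells rely largely on OXPHOS for ATP.

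The promoters of many OXPHOS genes hold sites for NRF1, ETS factors such as GABPA, and YY1, so the stretches around such motifs are shown for the 5 members that passed the test described below. Windows from 250 bases before to 50 bases after an annotated start (RefSeq, GRCm38.p6) were searched on both strands for GCGCA, any base and GCGC (NRF1), CCGGAAG (ETS), AAGAT joined to GGCGG (YY1) and, for contrast, TATAAA. Each stretch is 30 bases, written 5′ to 3′ on the strand of the gene, with the motif or its reverse complement in capitals.
Ndufb4, NRF1, chr16:37654540-37654569, minus strand: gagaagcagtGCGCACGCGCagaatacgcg
Ndufb4, NRF1, chr16:37654428-37654457, minus strand: ccttgtgcgcGCGCAGGCGCacttcctgag
Ndufb4, NRF1, chr16:37654371-37654400, minus strand: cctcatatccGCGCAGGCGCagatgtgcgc
Ndufa6, NRF1 reversed, chr15:82354249-82354278, minus strand: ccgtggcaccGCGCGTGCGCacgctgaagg
Sdhb, ETS, chr4:140961265-140961294, plus strand: ggctcggagaaaCCGGAAGcggccttccac
Uqcrh, ETS reversed, chr4:116075063-116075092, minus strand: gagtatgccgcaCTTCCGGccaggtcgccg
Atp5sl, YY1, chr7:25619430-25619459, plus strand: gttacctggcAAGATGGCGGcgcccagagc

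A promoter window was found for 77 of the 89 members, with 83 windows in all. The NRF1 motif lay in 26.5% of member windows, against 4.6% of all promoter windows and 10.9% of those of tested genes. For the ETS motif the shares were 25.3%, 8.86% and 19.4%, and for the YY1 motif 9.64%, 0.852% and 2.29%. TATAAA lay in 8.43% of member windows, 13.6% of all windows and 6.43% of those of tested genes. No member window held overlapping matches of different motifs. At least 1 of the NRF1, ETS and YY1 motifs was found in 41 of 77 members (53.2%), against 34.0% of tested genes with a window. The median log2 fold change (Rnmt cKO over control) was -0.05 for the 41 members with a motif and -0.03 for the 36 without. A match is a description of the letters and not evidence of binding.

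The libraries held between 8873413 and 11277764 sense counts in genes, and every pair of libraries within a group differed beyond sampling noise (chi-square per degree of freedom 3.64 to 22.9). The labels do not say that libraries came from separate animals, but a legend of the authors gives 3 control and 3 Rnmt cKO mice for this sequencing. The p-values measure the spread between these samples, which may be partly technical. The targeted gene Rnmt gave 51.5, 58.7 and 57.9 CPM (counts relative to library size, with TMM factors) in controls and 42.0, 37.5 and 26.6 CPM in Rnmt cKO libraries, a log2 fold change of -0.67 (SE 0.20, edgeR exact test adjusted p = 0.00035). The deletion removes 1 exon, so remaining reads do not measure intact transcript. Between 31.8% and 47.9% of uniquely mapped reads were counted to no gene. This share was lowest in Rnmt cKO 3 (31.8%) and, among controls, in control 1 (36.1%). Reads were counted to a gene by its annotated exons on the sense strand. The share thus includes reads in introns or antisense to a gene, and is called reads in no gene below. T cell markers (7 of 7 tested, 1 lower, 1 higher) summed to 2997 to 3395 CPM in controls and 2889 to 3536 CPM in Rnmt cKO libraries. Markers of dividing cells (8 tested, 7 higher) summed to 161 to 184 CPM in controls and 407 to 439 CPM in Rnmt cKO libraries. B cell markers (6 tested, 3 higher) summed to 33.0 to 40.4 and 42.5 to 75.1 CPM, myeloid markers (3 tested of 6, 1 higher) to 5.29 to 7.51 and 10.1 to 22.9 CPM, CD8 markers (2 tested, 2 lower) to 21.7 to 23.3 and 13.5 to 17.3 CPM, and erythroid markers (2 tested of 5, 2 lower) to 4.75 to 7.52 and 1.06 to 1.35 CPM. Naïve T cell markers (6 tested, 1 lower, 2 higher) summed to 4241 to 4495 and 4907 to 5460 CPM, and memory or effector markers (2 tested of 6, 1 lower, 1 higher) to 119 to 131 and 115 to 143 CPM. No marker was at 0 in all 6 libraries. The part of these cells in the values below was not tested, and in bulk RNA fewer cells of a type and less RNA per cell cannot be told apart.

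OXPHOS genes were well expressed in control naïve CD4 T cells. Per kilobase of exon (RPKM, from TMM-scaled counts), the median member reached 40.3 RPKM, against 9.08 RPKM for all tested genes. Medians were 81.5 RPKM for complex V subunits, 80.3 for complex IV, 60.05 for complex III, 49.96 for complex II and 31.6 for complex I. Assembly factors lay below the subunits, with a median of 7.90 RPKM and a range of 1.56 to 13.0 RPKM. The lowest subunit was Ndufb2 at 2.72 RPKM. Its annotated transcripts hold 4374 different stretches of 75 bases, against a median exon length of 992 bases over subunits, so this value depends on the length used. The lowest subunits of complexes II and III reached 11.4 and 10.6 RPKM, so the classes overlap per kilobase.

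**Figure D1:**
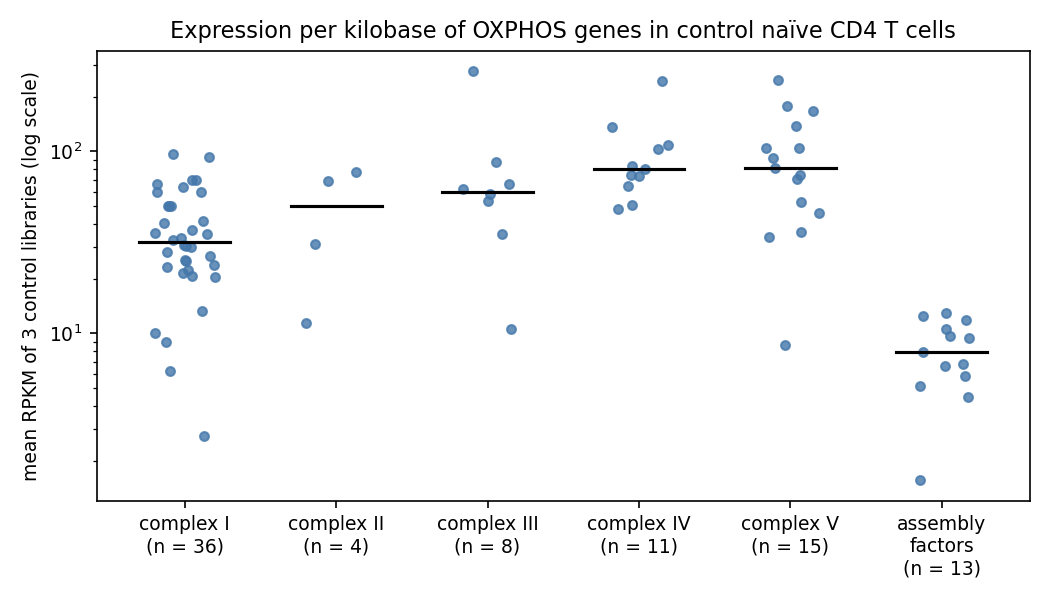
Mean RPKM of the 3 control libraries on a log axis for each OXPHOS gene, grouped by complex, with 1 point per gene and a bar at the class median. Assembly factors sit between 1.56 and 13.0 RPKM, below the medians of all 5 complexes.

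The most abundant member per kilobase was Uqcrh of complex III, the hinge protein beside cytochrome c1, at 276 ± 37.8 RPKM (SD, n = 3). Cox7a2l, which belongs to neither subunits nor assembly factors here, followed at 272 ± 34.05 RPKM. The catalytic β subunit of ATP synthase, Atp5b, reached 248 ± 16.03 RPKM and the complex IV subunit Cox4i1 244 ± 39.5 RPKM. These 4 levels lie within their replicate spread of each other. In complex I the most abundant was Ndufa7, an accessory subunit, at 97.1 ± 13.1 RPKM, and in complex II it was Sdha, the flavoprotein that oxidises succinate, at 76.8 ± 3.86 RPKM.

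Of the paralogs known for use in other tissues, hardly any reads were found. Cox4i2 held at most 2 counts in a library, Cox6a2 at most 1, Cox7a1 at most 4, Cox6b2 at most 7 and Ndufa4l2 at most 2, while Cox7b2, Cox8b and Cox8c held 0 in all 6 libraries. In the order of control level, the broadly expressed paralogs Cox4i1, Cox6b1, Cox6a1 and Cox7a2 gave 187 ± 30.2, 83.99 ± 12.3, 59.04 ± 6.67 and 49.05 ± 5.58 CPM. The c subunit of ATP synthase is encoded by 3 genes with the same mature protein, and per kilobase Atp5g3 gave 74.3 ± 4.57 RPKM, Atp5g2 36.05 ± 3.41 RPKM and Atp5g1 8.67 ± 0.94 RPKM in controls. RPKM divides by the joined length of all annotated exons of a gene. The annotated transcripts of Atp5g1 hold 4856 different 75-base stretches and those of Atp5g2 657. The low RPKM of Atp5g1 thus depends on that length, and the order of the 3 genes is uncertain. Of the 75-base stretches of Atp5g2 exons, 86.9% also occur in another gene, so its unique counts are uncertain in level.

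Few OXPHOS genes passed the test between Rnmt cKO and control cells. Of 89 members, 4 were lower (4.49%), where 6.84% of all tested genes were lower, and 1 was higher (1.12%), where 8.0% of all tested genes were higher (edgeR exact test, adjusted p under 0.05). The lower members were Ndufb4 and Ndufa6 of complex I, Sdhb of complex II and Uqcrh of complex III, and the higher member was the assembly factor Atp5sl. The median log2 fold change was -0.04 over members and 0.01 over all tested genes. The sign of the member median turned when control 1 (0.04), Rnmt cKO 1 (0.0014) or Rnmt cKO 2 (0.02) was left out. Log2 fold changes were below 0 for 55 of 89 members, which is 61.8%, against 47.8% of all tested genes. At an unadjusted p under 0.05, 8 members were lower and 4 higher, against 11.7% and 13.3% of all tested genes. The quasi-likelihood test of edgeR called 4 lower and 1 higher members (5.16% and 6.43% of all tested genes), and DESeq2 called 4 and 1 (5.17% and 5.69%). No list test was made.

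**Figure D2:**
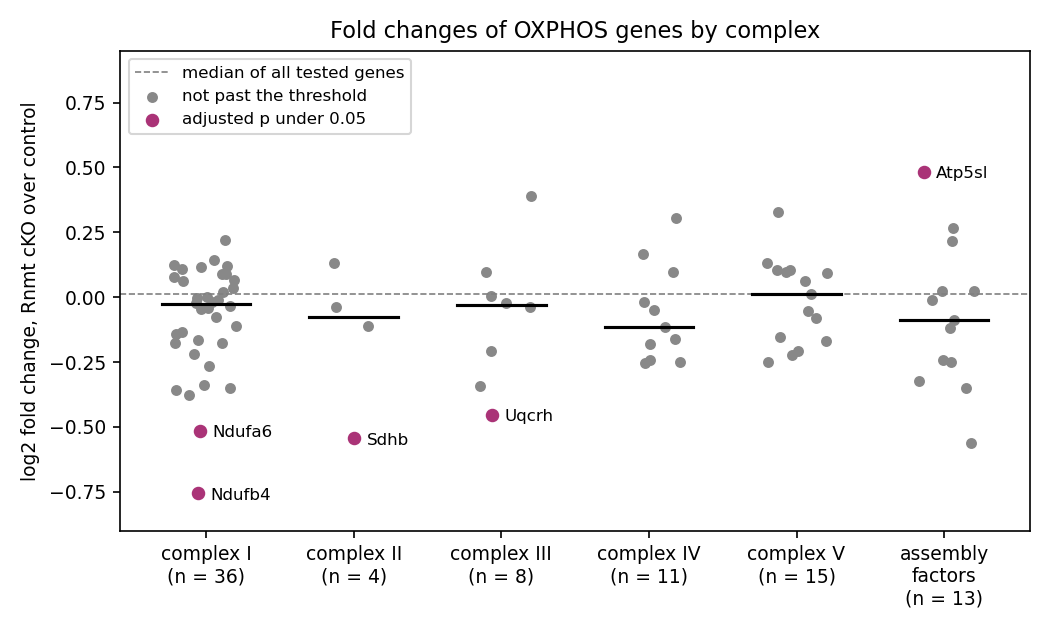
Log2 fold change (Rnmt cKO over control) of each OXPHOS gene by complex, with a bar at each class median and a dashed line at the median of all tested genes. The 5 named genes passed the threshold, and the class medians lie between -0.11 (complex IV) and 0.01 (complex V).

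Complex I, the entry point of NADH electrons, had 36 tested subunits, of which 2 were lower and 0 higher, with a median log2 fold change of -0.03. At an unadjusted p under 0.05 the counts were 5 lower and 0 higher, and the edgeR quasi-likelihood test and DESeq2 each called 2 lower and 0 higher. Of all tested genes, 6.84% were lower and 8.0% higher, and 11.7% and 13.3% at an unadjusted p under 0.05. The quasi-likelihood test called 5.16% and 6.43% of them, and DESeq2 5.17% and 5.69%. These shares also stand beside the counts of the complexes and lists below. Ndufb4 (ENSMUSG00000022820, chr16:37647170-37654453, minus strand, mm10) encodes an accessory subunit of the membrane arm. It gave 23.5, 19.5 and 17.3 CPM in controls and 11.3, 10.5 and 13.8 CPM in Rnmt cKO libraries. All Rnmt cKO libraries lay below all controls, with Rnmt cKO 3 the highest of its group and control 1 the highest of controls. The log2 fold change was -0.76 (SE 0.17, edgeR exact test adjusted p = 0.000312). Of its 75-base stretches, 35.2% occur also in the copies Gm16056 or Ndufb4c, so its unique counts are uncertain in level.

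Ndufa6 (ENSMUSG00000022450, chr15:82350140-82354322, minus strand, mm10) encodes a LYR-motif accessory subunit of the peripheral arm. It gave 71.0, 62.3 and 55.6 CPM in controls and 42.5, 39.1 and 50.5 CPM in Rnmt cKO libraries. The groups did not overlap, with Rnmt cKO 3 the nearest to the controls. The log2 fold change was -0.52 (SE 0.15, edgeR exact test adjusted p = 0.00139), and none of its 75-base stretches occurs in another gene.

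The other complex I subunits did not pass the test, with log2 fold changes between -0.38 (Ndufb9) and 0.22 (Ndufa5). Among the nuclear core subunits, which carry the flavin and the iron-sulfur clusters, Ndufv2 had -0.34 (SE 0.15, edgeR adjusted p = 0.0602). Ndufs1, Ndufs3, Ndufs7, Ndufs8 and Ndufv1 lay between -0.11 and 0.11. Ndufa7 gave 59.3, 47.0 and 47.5 CPM in controls and 43.1, 39.1 and 54.7 CPM in Rnmt cKO libraries, so the groups overlapped (log2 fold change -0.17, SE 0.18).

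Complex II, or succinate dehydrogenase, has 4 nuclear subunits and links the TCA cycle to the respiratory chain. Sdhb (ENSMUSG00000009863, chr4:140961203-140979193, plus strand, mm10), its iron-sulfur subunit, gave 88.1, 77.1 and 71.6 CPM in controls and 49.8, 50.2 and 62.2 CPM in Rnmt cKO libraries. All Rnmt cKO libraries lay below all controls, and Rnmt cKO 3 stood above the other two. The log2 fold change was -0.54 (SE 0.14, edgeR exact test adjusted p = 0.000227). The other three subunits overlapped between groups. Sdha gave 220, 235 and 213 CPM in controls and 206, 209 and 236 CPM in Rnmt cKO libraries, a log2 fold change of -0.04 (SE 0.08). The membrane anchors Sdhc and Sdhd had log2 fold changes of -0.11 (SE 0.22) and 0.13 (SE 0.19), with edgeR adjusted p of 0.767 and 0.680. Whether Sdhb differed from its partner subunits was not tested.

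Complex III passes electrons from coenzyme Q to cytochrome c. Of its 8 tested nuclear subunits with a Uqcr symbol, 1 was lower and 0 higher, and the median log2 fold change was -0.03. At an unadjusted p under 0.05 there were 1 lower and 1 higher. Both the quasi-likelihood test and DESeq2 called 1 lower and 0 higher. Uqcrh (ENSMUSG00000063882, chr4:116066965-116075071, minus strand, mm10) gave 174, 134 and 145 CPM in controls and 98.3, 99.8 and 133 CPM in Rnmt cKO libraries. The groups did not overlap, but Rnmt cKO 3 lay just under the lowest control. The log2 fold change was -0.45 (SE 0.18, edgeR exact test adjusted p = 0.0125). It lost the call without control 1 (adjusted p = 0.135), without Rnmt cKO 1 (0.110) and without Rnmt cKO 2 (0.108), each in the edgeR exact test. Uqcr10, a small subunit, gave 30.9, 24.3 and 20.7 CPM in controls and 30.8, 27.2 and 41.2 CPM in Rnmt cKO libraries. Its groups overlapped, with a log2 fold change of 0.39 (SE 0.24, edgeR adjusted p = 0.170). The Rieske iron-sulfur protein Uqcrfs1 and the core protein Uqcrc1 had log2 fold changes of 0.0036 and -0.04.

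**Figure D3:**
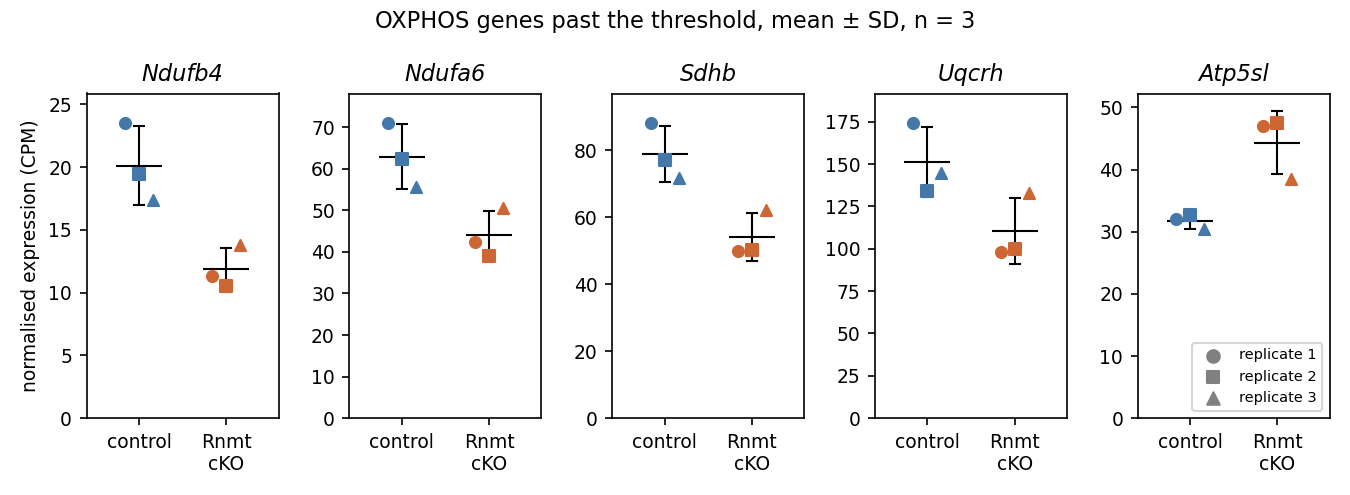
Normalised expression (CPM, linear axis from 0) of the 5 OXPHOS genes past the threshold in each library, with the mean and SD of 3 libraries a group. Rnmt cKO 3 (triangle) is the highest Rnmt cKO library for Ndufb4, Ndufa6, Sdhb and Uqcrh and the lowest for Atp5sl.

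Complex IV, cytochrome c oxidase, had 11 tested nuclear subunits, counting Ndufa4, which is now placed in this complex. The edgeR exact test called 0 lower and 0 higher. An unadjusted p under 0.05 was reached by 0 lower and 1 higher genes (Cox8a), and the quasi-likelihood test and DESeq2 also called 0. The median log2 fold change was -0.11, and 8 of 11 values lay below 0. Cox4i1 gave 221, 172 and 167 CPM in controls and 135, 133 and 203 CPM in Rnmt cKO libraries. Rnmt cKO 1 and 2 lay below all controls and Rnmt cKO 3 above control 2 and control 3, and the log2 fold change was -0.25 (SE 0.24, edgeR adjusted p = 0.385). The same overlap through Rnmt cKO 3 was seen for Cox7b, at 84.9, 66.2 and 68.1 CPM in controls and 57.7, 50.5 and 75.5 CPM in Rnmt cKO libraries. Its log2 fold change was -0.25 (SE 0.20). Cox7a2 and Cox6b1 had log2 fold changes of -0.24 (SE 0.24) and -0.16 (SE 0.19), and Cox6a1 of 0.10 (SE 0.17). Cox8a, the subunit with the highest value, gave 67.1, 63.8 and 48.3 CPM in controls and 64.1, 68.3 and 88.7 CPM in Rnmt cKO libraries (log2 fold change 0.30, SE 0.21, edgeR adjusted p = 0.198).

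Complex V had 15 tested subunits with a median log2 fold change of 0.01. The edgeR exact test called 0 lower and 0 higher. An unadjusted p under 0.05 was reached by 0 lower and 1 higher genes (Atp5g3), and the quasi-likelihood test and DESeq2 also called 0. Atp5b gave 506, 474 and 444 CPM in controls and 460, 469 and 603 CPM in Rnmt cKO libraries. Only Rnmt cKO 3 lay outside the control range, and the log2 fold change was 0.11 (SE 0.14, edgeR adjusted p = 0.681). The ε subunit Atp5e, with the lowest value of the complex, had a log2 fold change of -0.25 (SE 0.28, edgeR adjusted p = 0.480). For the c subunit, Atp5g3 gave 57.0, 50.4 and 53.9 CPM in controls and 59.4, 61.1 and 82.0 CPM in Rnmt cKO libraries. All Rnmt cKO libraries lay above all controls, with a log2 fold change of 0.33 (SE 0.16) that missed the threshold (edgeR adjusted p = 0.0859). Atp5g1 and Atp5g2 had 0.01 (SE 0.15) and -0.17 (SE 0.15), and their groups overlapped.

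Assembly factors, the comparison class, comprised 8 Ndufaf genes for complex I, 4 Sdhaf genes for complex II and Atp5sl. Atp5sl (ENSMUSG00000057229, chr7:25619414-25625551, plus strand, mm10), also known as Dmac2, encodes a factor for the distal membrane arm of complex I despite its symbol. It gave 32.0, 32.7 and 30.4 CPM in controls and 47.0, 47.5 and 38.5 CPM in Rnmt cKO libraries. All Rnmt cKO libraries lay above all controls, with Rnmt cKO 3 the nearest to them. The log2 fold change was 0.48 (SE 0.10, edgeR exact test adjusted p = 0.00113). Of the other members of the class, 0 passed in the edgeR exact test, the quasi-likelihood test or DESeq2.

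The 8 Ndufaf genes had a median log2 fold change of -0.10, against -0.03 for complex I subunits and -0.09 for all 13 assembly factors, and an unadjusted p under 0.05 was reached by 0 of them. Their values ran from -0.35 (Ndufaf2) to 0.22 (Ndufaf4). Ndufaf1, Ndufaf2 and Ndufaf5 lay below all controls in every Rnmt cKO library, and Ndufaf4 above, at 20.0, 22.5 and 20.8 CPM in controls and 23.7, 24.0 and 25.8 CPM in Rnmt cKO libraries. Sdhaf3, which helps load the iron-sulfur clusters of Sdhb, gave 6.70, 5.69 and 7.84 CPM in controls and 5.60, 4.22 and 3.94 CPM in Rnmt cKO libraries. Its log2 fold change was -0.56 (SE 0.20), but the edgeR adjusted p was 0.119. Over all members, 10 lay lower and 5 higher in every Rnmt cKO library than in every control, against 14.9% and 16.6% of all tested genes.

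Outside both classes, Cox7a2l gave 354, 300 and 279 CPM in controls and 241, 232 and 321 CPM in Rnmt cKO libraries. The groups overlapped through Rnmt cKO 3 alone, and the log2 fold change was -0.23 (SE 0.18, edgeR adjusted p = 0.317). Atp5s, at about 3 CPM in controls (3.05 ± 0.27 CPM), had a log2 fold change of -0.56 (SE 0.10, edgeR adjusted p = 0.211).

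The level of most members followed the library within each group. Control 1 was the highest control in 75 of 89 members (84.3%), against 35.6% of all tested genes, and Rnmt cKO 3 was the highest Rnmt cKO library in 80 of 89 (89.9%), against 41.4% of all tested genes. Relative to the control mean, the median member deviated by 0.16, -0.04 and -0.11 (log2 CPM) in controls 1, 2 and 3 and by -0.12, -0.19 and 0.16 in Rnmt cKO 1, 2 and 3. The 6 medians of all tested genes lay between -0.0034 and 0.02. Rnmt cKO 3 thus lay about as far above the control mean as control 1, and these libraries have the lowest share of reads in no gene in their groups.

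**Figure D4:**
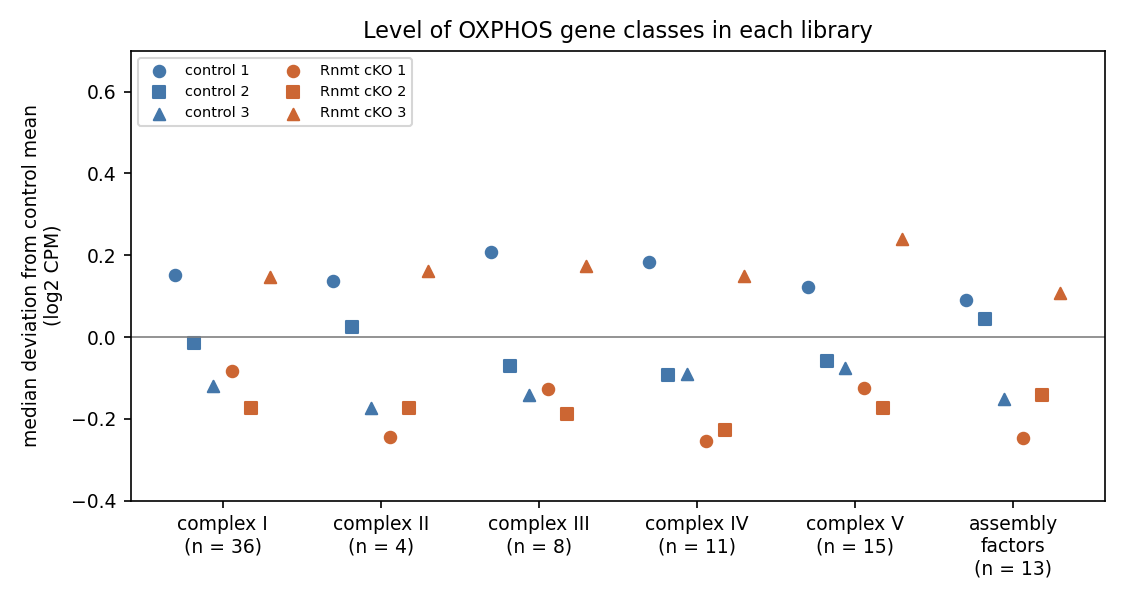
Median deviation from the control mean (log2 CPM) of each class of OXPHOS genes in each of the 6 libraries, with controls in blue and Rnmt cKO libraries in orange. Control 1 and Rnmt cKO 3 sit above 0 in every class plotted, and Rnmt cKO 1 and 2 sit below 0.

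Without Rnmt cKO 3, 22 members were lower and 1 was higher, while 10.5% of all tested genes were lower and 10% higher, and the median of members was -0.19. The lower members were then 9 of 36 subunits in complex I, 2 of 4 in complex II, 2 of 8 in complex III, 5 of 11 in complex IV, 3 of 15 in complex V, Cox7a2l, and 0 of 13 assembly factors. Cox4i1, for example, had a log2 fold change of -0.49 (edgeR exact test adjusted p = 0.000217) and Cox7b of -0.45 (0.00164). With control 1 left out as well, 13 members were lower and 1 higher, where 9.08% and 9.01% of all tested genes were called. Within the 3 libraries of lower share of reads in no gene (controls 1 and 2 and Rnmt cKO 3) the median log2 ratio of members was 0.11, with 24 of 89 below 0. Within the 3 of higher share (control 3 and Rnmt cKO 1 and 2) it was -0.07, with 55 of 89 below 0. Each set has 1 library in one of its groups, so these are values of those libraries and no test. With this share as a covariate in the quasi-likelihood fit, 12 members were lower and 6 higher, against 11.9% and 13.7% of all tested genes. Without scaling beyond library size, 4 members were lower and 5 higher, beside 4.34% and 15.7% of all tested genes. With the length and GC trends of each library removed, 5 were lower and 4 higher (8.06% and 8.84% of all tested genes).

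As a whole, the members took 0.565%, 0.533% and 0.510% of gene counts in controls and 0.536%, 0.527% and 0.636% in Rnmt cKO libraries. Controls averaged 0.536 ± 0.0276% (SD, n = 3), and Rnmt cKO cells averaged 0.566 ± 0.0609% (SD, n = 3). The groups overlapped, and Rnmt cKO 3 alone lay above the control range. The Wilson 95% interval of that library was 0.632% to 0.641%, which covers counting error only. In TMM-scaled CPM the sum over members was 5613 ± 510 in controls and 5457 ± 847 in Rnmt cKO cells, so the order of the means depends on the scaling. Over the 89 members, the log2 fold change had a Pearson r of 0.10 with log10 exon length, 0.15 with GC content and 0.09 with log2 control RPKM, given as a description since the points share libraries.

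Other genes of the pathway were taken from lists. Of 39 tested OXPHOS assembly factors outside the rule, 1 was lower and 2 were higher in the edgeR exact test (6.84% and 8.0% of all tested genes). An unadjusted p under 0.05 was reached by 2 lower and 5 higher, and the quasi-likelihood test and DESeq2 each called 1 and 1. Uqcc2, an assembly factor of complex III, gave 18.9, 13.4 and 14.4 CPM in controls and 5.92, 6.33 and 8.96 CPM in Rnmt cKO libraries, a log2 fold change of -1.13 (SE 0.24, edgeR exact test adjusted p = 8.90e-06). Foxred1, a complex I factor, had 0.62 (SE 0.14, edgeR adjusted p = 0.000171), and Lyrm7, which chaperones the Rieske protein of complex III, had 0.64 (SE 0.15, edgeR adjusted p = 0.0236). In these 3 genes the groups did not overlap.

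Among 16 tested genes listed for cytochrome c and coenzyme Q, 0 were lower and 1 was higher in the edgeR exact test (1 and 1 at an unadjusted p under 0.05, and 0 in the quasi-likelihood test and DESeq2). The 1 was Cycs, cytochrome c itself, at 32.9, 30.1 and 28.4 CPM in controls and 37.0, 35.2 and 45.9 CPM in Rnmt cKO libraries (log2 fold change 0.37, SE 0.13, edgeR adjusted p = 0.0440). The list also holds Cyc1, the cytochrome c1 of complex III, whose symbol is outside the rule (log2 fold change -0.0050, SE 0.07). Of 13 TCA cycle genes, 0 were lower and 0 higher (0 and 1 at an unadjusted p under 0.05, and 0 in both other tools). Of 8 tested ATP synthase and carrier genes under other symbols, 0 were lower and 0 higher (1 and 0 at an unadjusted p under 0.05, and 0 in both other tools). Of 11 tested regulators of mitochondrial biogenesis, Tfb1m, a methyltransferase for mitochondrial rRNA, was lower (log2 fold change -0.71, SE 0.15, edgeR adjusted p = 0.00522). Gabpa, the ETS factor that binds many OXPHOS promoters, was higher (0.26, SE 0.08, edgeR adjusted p = 0.0466), but 0 regulators were higher in the quasi-likelihood test and DESeq2.

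The mitochondrially encoded partners of these subunits could be tested for 7 of 13 genes. In the edgeR exact test 0 were lower and 0 higher (1 and 0 at an unadjusted p under 0.05, and 0 in both other tools), and the median log2 fold change was 0.09. The summed level was 10720 to 11102 CPM in controls and 10588 to 13040 CPM in Rnmt cKO libraries, and Rnmt cKO 3 was again the highest. The 6 others lay below the filter, with mt-Atp8 and mt-Nd4l at 0 in all 6 libraries. In any library mt-Co2 held at most 4 counts, mt-Co3 3, mt-Atp6 1 and mt-Nd3 3, while mt-Co1 held 63231 to 99054. Only uniquely mapped reads were counted, and whether reads of these genes were lost in mapping was not tested. Their low counts therefore do not show that they are silent, and the summed level holds almost nothing from them.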

How the data were processed

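The authors aligned paired-end reads to mm10 (GRCm38) with STAR 2.5.2b and the GENCODE basic annotation, and deposited raw counts per gene for each of 6 libraries. Their deposited edgeR table gives a normalized signal per sample with fold changes and p-values of their own. It was used for the list of genes and to check the count column (sense counts divided by 1 constant gave its signal for 100% of genes), and its fold changes and p-values were not used.

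The 12336 tested genes each exceeded 1 CPM in 3 or more samples. They were tested with the edgeR 4.0.16 exact test (R 4.3.3) on tagwise dispersions with TMM scaling, Benjamini-Hochberg adjustment over all tested genes and a threshold of 0.05. Lines for reads in no gene stayed out of library sizes. RPKM used the joined length of all annotated exons of a gene in GENCODE vM21, where 46488 of 46983 identifiers were found. Standard errors came from log2 CPM with a prior count of 2. The code was tested on simulated data. Alternatives included DESeq2 1.42.0 and leaving out each library.

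Named members were those past the threshold, the most abundant, lowest and highest of each class, the paralog sets and Sdha to Sdhd. Other names were chosen after their values were seen. Members and lists were chosen with earlier results of these data known. Promoter windows are from RefSeq, GRCm38.p6. They were not found for 12 members, among them Atp5a1 and Cox4i1. Single values of 1 member are not reported here.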

Additional observations from a re-analysis of the deposited data

How the results depend on the processing

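Over 18 alternatives to the edgeR exact test, the median of all members ran from -0.19 (without Rnmt cKO 3) to 0.08 (no scaling beyond library size). For comparison, the deviation of the median member ran from -0.11 to 0.16 over the control libraries. Among the classes, the median ran from -0.28 to 0.02 in complex IV and from -0.15 to 0.14 in complex V. Without scaling the median of all tested genes was 0.14. Without control 1 the median of members was 0.04, without Rnmt cKO 1 0.0014 and without Rnmt cKO 2 0.02, above the 0.01, 0.00021 and 0.0027 of all tested genes, so the side of the background on which members lay depended on single libraries. The number of lower members was 4, and 1 with the replicate number as a block, 12 with the share of reads in no gene as a covariate, 13 without both control 1 and Rnmt cKO 3 (chosen after seeing the data) and 3 to 22 with 1 library left out, the 22 without Rnmt cKO 3. The number of higher members was 1, and 5 without scaling, 6 with that covariate, 4 with length and GC trends removed and 1 to 2 with 1 library left out. Of all tested genes, 535 were lower and 1938 higher without scaling, 276 and 431 with the replicate block, 1466 and 1696 with the covariate, and 547 to 1285 lower and 643 to 1221 higher with 1 library left out, with 559, 560, 547 and 1285 lower without control 1, control 2, Rnmt cKO 2 and Rnmt cKO 3 and 656 and 643 higher without control 2 and Rnmt cKO 2. The causes were not tested. Same-numbered libraries had correlations of deviations of -0.21, -0.02 and -0.35, so no pairing by number was seen in these values. The deviations are from means of 3 libraries, so such correlations cannot exclude a pairing. Sdhb and Atp5sl passed under all 18 alternatives, and Ndufb4 and Ndufa6 under 17, with adjusted p of 0.0515 and 0.0658 under the block. Uqcrh lost its call under 4, the block (adjusted p = 0.0959) and 3 single libraries named above. The share of members was 1.58% in controls and 1.63% in Rnmt cKO cells when counted as RPKM over protein-coding genes. Values that changed sign were all short of the threshold: Atp5g1 had -0.000963 with DESeq2 size factors, -0.0012 with DESeq2, -0.04 without both libraries and -0.13 to 0.10 with 1 library left out, Sdha 0.083 and Sdhc 0.0060 without scaling, and with 1 library left out Atp5b ran from -0.048 to 0.17, Cox6a1 from -0.071 to 0.20, Sdha from -0.12 to 0.0015, Sdhc from -0.34 to 0.0037 and Sdhd from -0.022 to 0.28. With 3 libraries a group, a log2 standard error of 0.05 to 0.31 over members limits what could be called.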
